A study of Mus musculus with 6 samples.

Results

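The nuclear-encoded subunits of the oxidative phosphorylation machinery were followed through RNAseq of activated mouse CD4+ T cells. Members were taken by gene symbol, as every gene whose name begins like a subunit of complexes I to V (*Nduf*, *Sdh*, *Uqcr* and *Cyc1*, *Cox4* to *Cox8*, *Atp5*), and 86 of the 23420 genes in the deposited table met this rule. They divide into 38 genes of complex I, 4 of complex II, 9 of complex III, 18 of complex IV and 17 of complex V. Of these, 78 passed the filter on low counts (36, 4, 9, 12 and 17 from complex I to complex V) and were tested among 10607 genes. The other 8 are accounted for below by their counts. The symbols also take in a few genes that are not structural subunits, namely *Cox7a2l*, a supercomplex assembly factor, *Atp5s*, a coupling factor, and *Atp5sl*, which acts in complex I assembly. *Ndufa4* is grouped here by its name with complex I, although its protein is now placed in complex IV.

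Splenic CD4+CD62L+ T cells came from BALB/c mice of 12 weeks and were activated on plate-bound anti-CD3 and anti-CD28. Every library is from cells that received an shRNA virus after 24 h of stimulation. They were given medium with IL-2 a further 24 h later and were harvested 48 h after that. The paper describes Th0 conditions, free of polarizing cytokines, with harmine given at that feeding. Its general culture methods add no IL-2 to Th0 cultures, so the use of IL-2 here is uncertain. The 3 groups of 2 libraries each were cells with *Dyrk1a* shRNA, cells with a non-targeting shRNA and 3.7 µM harmine, a plant alkaloid that inhibits the kinase DYRK1A (called harmine), and cells with the non-targeting shRNA alone (called control). The study used several shRNA sequences against *Dyrk1a* and several non-targeting ones, and the sources used here do not say which of them went into each library. Nothing in the labels says that replicates came from separate mice or cultures, so p-values measure only the spread between these libraries, which may be technical.

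The respiratory chain passes electrons from NADH through complex I, or from succinate through complex II, to ubiquinone, then through complex III and cytochrome c to complex IV, which reduces oxygen. Complexes I, III and IV pump protons out of the mitochondrial matrix, and complex V, the ATP synthase, lets them flow back to make ATP. Most subunits are encoded in the nucleus, and the remainder, which include catalytic parts of complexes I, III and IV, in the mitochondrial DNA. T cells that leave quiescence build up mitochondria together with glycolysis, and the nuclear subunit genes are known targets of the transcription factors NRF1, GABP (of which GABPA is the DNA-binding, ETS-type subunit) and YY1. The mitochondrially encoded subunits were not analysed here, since 0 of 13 are in the table.

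The libraries held 2678872 and 3274050 counts with *Dyrk1a* shRNA, 3441063 and 3747648 with harmine, and 1743428 and 1096345 in control. Levels of *Dyrk1a* itself were 60.2 and 61.9 CPM (counts per 1000000 counts of the library, scaled by edgeR's TMM method) with *Dyrk1a* shRNA, 74.8 and 77.6 CPM with harmine, and 58.4 and 82.7 CPM in control. Both *Dyrk1a* shRNA libraries thus lay within the range of the controls (log2 fold change -0.19, standard error 0.21, edgeR adjusted p = 0.835), and a knockdown against control does not show in these counts. Both lay under both harmine libraries, whose cells also carried the non-targeting shRNA (-0.32, standard error 0.20, edgeR adjusted p = 0.88). Of all genes, 20.8% were set apart in this way. Markers of CD4 T cells summed to 4376 to 4666 CPM in all libraries, with all 13 of the list above 0, and B cell markers (9 genes) to 29.2 to 40.7 CPM. Control replicate 1 stood highest for markers of the other cell types. The 9 markers of CD8 T and NK cells summed to 68.6 and 71.6 CPM with *Dyrk1a* shRNA, 68.9 and 57 CPM with harmine, and 115 and 54 CPM in control. For 9 myeloid markers these sums were 32.6 and 19.8, 33.7 and 22.2, and 47.1 and 22.8 CPM in the same order. For the 7 erythroid and platelet markers, of which *Hba-a2* and *Hbb-b1* were at 0 throughout, they were 12.6 and 15.6, 11 and 10.3, and 30.1 and 15.2 CPM.

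Control replicate 1 also stood apart for the subunit genes, and every comparison with control rests on this. It was the highest of the 6 libraries for 66 of the 78 members, whereas it was the highest for 24.6% of all genes tested. Control replicate 2 was the lowest for 58 members (23.1% of all genes), and for 52 members control replicate 1 was highest and control replicate 2 lowest (9.39% of all genes). The 86 members summed to 10594 and 9904 CPM with *Dyrk1a* shRNA, 11229 and 10843 CPM with harmine, and 16221 and 8773 CPM in control. Both treatments lay between the controls in this sum. The median log2 difference of control replicate 1 over control replicate 2 was 1.08, with 74 of 78 members above 0, against -0.00 over all genes tested. The same median between replicates was 0.05 for *Dyrk1a* shRNA and 0.01 for harmine. By complex, the median between the controls was 1.16 in complex I, 0.72 in complex II, 1.14 in complex III, 1.28 in complex IV and 0.96 in complex V. Here, as in any bulk RNA, fewer cells of a type and less RNA per cell cannot be told apart.

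**Figure D1:**
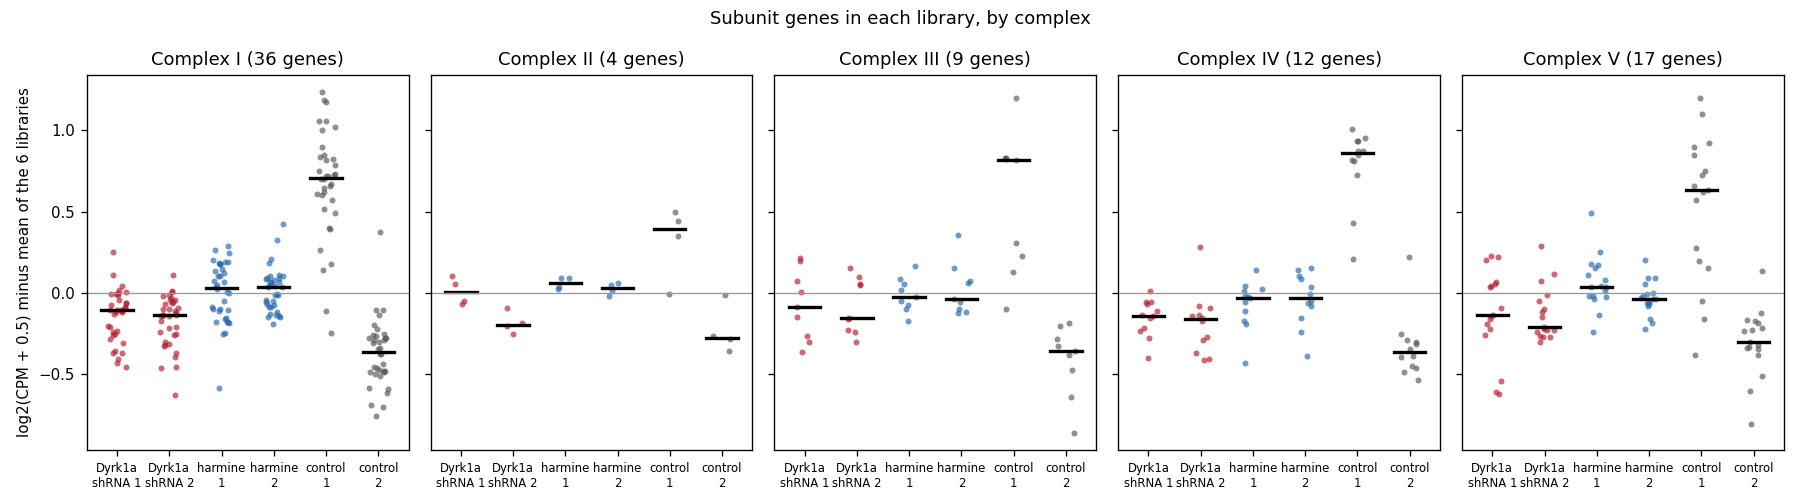
Level of each tested subunit gene in each library, as log2(CPM + 0.5) minus the mean of the 6 libraries (y axis), with 1 panel per complex; points are genes, black lines are medians, and libraries run from Dyrk1a shRNA through harmine to control. Control 1 stands above and control 2 below the other libraries, with member medians of 0.72 and -0.34, while the 4 treated libraries lie between -0.15 and 0.02.

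Not all subunits took part in this split. The 12 members for which control replicate 1 was not the highest library included *Ndufs1* and *Ndufv1* of complex I, *Sdha* of complex II, *Uqcrc1* and *Uqcrc2* of complex III, and *Atp5a1*, *Atp5b* and *Atp5sl* of complex V. They include large catalytic proteins, and all have coding sequences of 603 to 2184 nt, against a median of 436 nt over the tested members (159 to 2184 nt) and 1338 nt over all genes tested with an annotated coding sequence. *Sdha*, the flavoprotein of succinate dehydrogenase, had 108 and 94 CPM with *Dyrk1a* shRNA, 103 and 99.3 CPM with harmine, and 99.8 and 99.6 CPM in control, so that the controls agreed closely. *Ndufs1*, the largest subunit of complex I and the longest member, had 44.4 and 43, 41.4 and 47, and 37.7 and 58.2 CPM in these groups, so that it was lowest in control replicate 1. At the other end, *Ndufa1*, a small membrane-arm subunit needed for complex I assembly, had 81.6 and 79.6 CPM with *Dyrk1a* shRNA, 110 and 148 CPM with harmine, and 249 and 67.5 CPM in control. Here the 2 controls enclose the 4 treated libraries, and the same held for *Atp5j2* of the ATP synthase membrane part (107 and 94.3, 117 and 102, and 245 and 75.1 CPM).

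The difference between the controls followed coding length among the members. Its median was 1.20 over the 57 members with under 600 nt of coding sequence, all of which were higher in control replicate 1. Over the 21 members of 600 nt or more it was 0.37. The limit of 600 nt was chosen after the values were seen, so it shapes these counts and the later ones by coding length. Across the 78 members, Spearman's rho with coding length was -0.82 and Pearson's r with its logarithm was -0.85. Across 10254 genes tested these were -0.39 and -0.37. Genes are not independent replicates, and the points share the same 2 libraries, so these are descriptions. Among genes outside the group, those with under 600 nt of coding sequence held 19.5% and 19.7% of the counts with *Dyrk1a* shRNA, 21.7% and 21% with harmine, and 28% and 18.7% in control. Short coding sequences were thus also most prominent in control replicate 1 outside the respiratory chain, and the part of this share, and of the marker sums above, in the subunit levels was not tested.

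**Figure D2:**
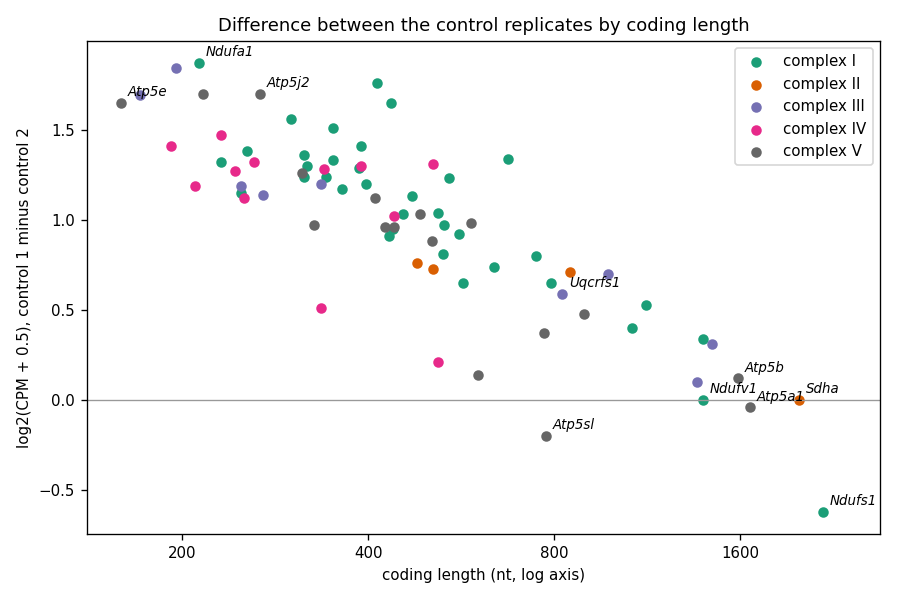
Difference between the control replicates, as log2(CPM + 0.5) in control 1 minus control 2 (y axis), against coding length in nt (x axis, log scale), for the 78 tested subunit genes coloured by complex. The 57 members under 600 nt, a limit chosen after the values were seen, all lie above 0, while Ndufs1, Atp5a1 and Atp5sl lie below it.

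Complex I, the NADH dehydrogenase, showed this within 1 enzyme. Its 7 nuclear core subunits that were tested (*Ndufs1*, *Ndufs3* and *Ndufv1* among them), which carry the flavin, the iron-sulphur clusters and the quinone site, were grouped after their values were seen. The median difference between controls was 0.65 in the core and 1.23 in the 29 other subunits, which surround the core and include the assembly and acyl-carrier subunits. The members of most counts were all accessory subunits. *Ndufv3*, beside the flavoprotein, had 318 and 291 CPM with *Dyrk1a* shRNA, 299 and 323 CPM with harmine, and 632 and 268 CPM in control. *Ndufa6*, of the matrix arm, had 244 and 226, 286 and 290, and 498 and 216 CPM in these groups. *Ndufb11*, of the membrane arm, had 193 and 203, 230 and 197, and 311 and 152 CPM. In all 3, the controls lay on either side of both treatments. CPM are not divided by transcript length, so levels are not compared between genes.

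Complex II, which also serves the citrate cycle, had the smallest median difference between the controls. The iron-sulphur subunit *Sdhb* had 85.8 and 72.5 CPM with *Dyrk1a* shRNA, 87.9 and 85.3 CPM with harmine, and 105 and 64.2 CPM in control. The membrane anchor *Sdhd* had 140 and 123, 149 and 153, and 207 and 122 CPM. In complex III, the cytochrome bc1 complex, *Uqcrh*, the hinge protein that meets cytochrome c1, had 364 and 344, 390 and 388, and 712 and 322 CPM in these groups. The Rieske iron-sulphur protein *Uqcrfs1* had 331 and 279 CPM with *Dyrk1a* shRNA, 370 and 345 CPM with harmine, and 408 and 271 CPM in control. *Uqcrc2*, a core protein with a longer coding sequence, had 205 and 199, 190 and 164, and 167 and 155 CPM, of the treated libraries only harmine replicate 2 lying between the controls.

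In complex IV, cytochrome c oxidase, the catalytic core is mitochondrially encoded and the nuclear subunits surround it. *Cox4i1*, the largest nuclear subunit, had 230 and 225 CPM with *Dyrk1a* shRNA, 236 and 215 CPM with harmine, and 422 and 171 CPM in control. *Cox8a*, one of the smallest, had 254 and 254, 272 and 271, and 495 and 216 CPM, so that the replicates of each treatment agreed closely and the controls did not. The assembly factor *Cox7a2l* had 602 and 565, 660 and 612, and 690 and 484 CPM. In complex V, the catalytic subunits *Atp5b* and *Atp5a1* differed little between libraries. *Atp5b* had 771 and 635 CPM with *Dyrk1a* shRNA, 696 and 642 CPM with harmine, and 636 and 585 CPM in control. *Atp5a1* had 680 and 641, 595 and 575, and 528 and 542 CPM in these groups, its controls being the 2 lowest libraries. *Atp5f1*, of the peripheral stalk, had 400 and 318, 433 and 381, and 438 and 339 CPM. As shares of the summed subunit counts, complex V made up 36.5% and 35.6% with *Dyrk1a* shRNA, 35.6% and 34% with harmine, and 30.6% and 36% in control, and complex IV 20.7% and 21%, 21.2% and 21.7%, and 24.2% and 20.9%. Control replicate 1 was the library with the lowest share of complex V and the highest of complex IV.

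**Figure D3:**
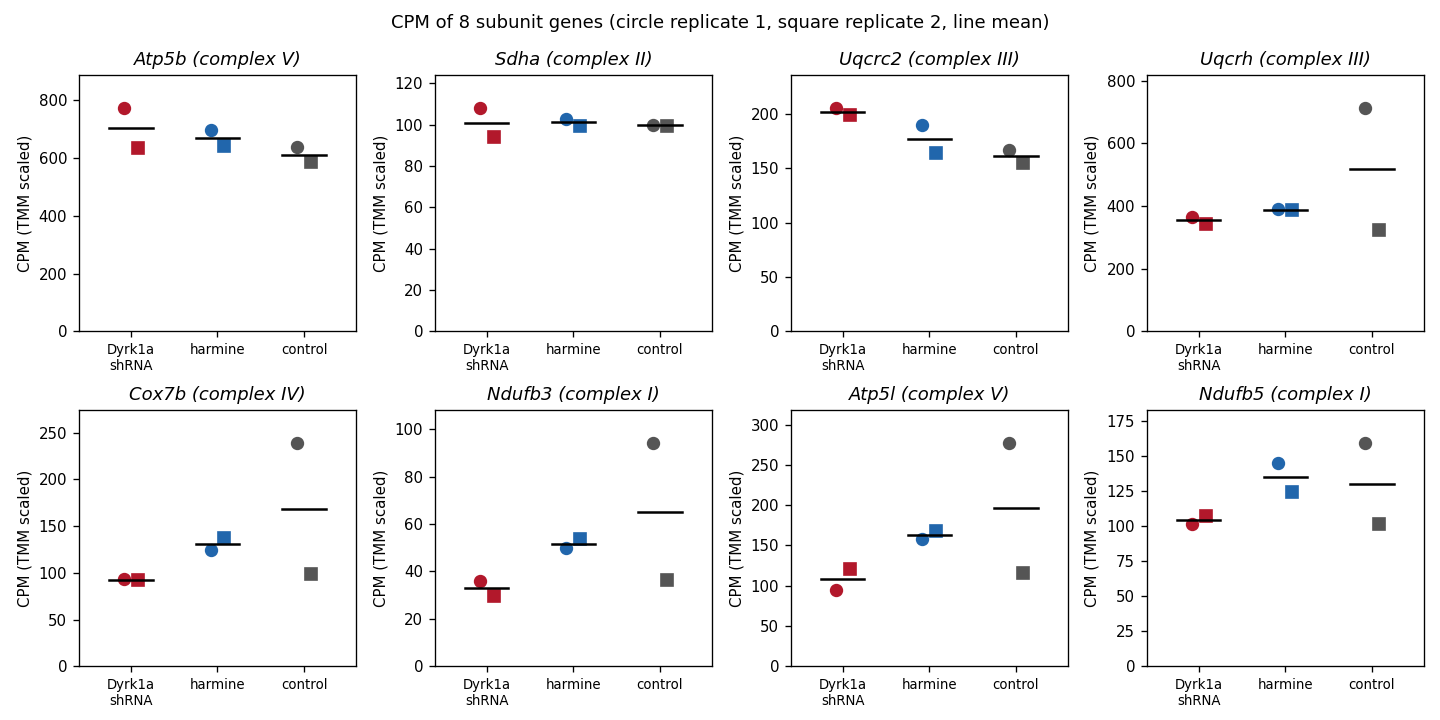
CPM (TMM scaled, y axis from 0) of 8 subunit genes in cells with Dyrk1a shRNA, harmine and control (x axis), with circles for replicate 1, squares for replicate 2 and lines for the mean of 2. The longer genes Atp5b and Sdha vary little, whereas control 1 exceeds every other library for Uqcrh, Cox7b, Ndufb3 and Atp5l.

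Several subunits exist as tissue-specific forms, and nearly all counts came from the widely expressed ones. *Cox7b2*, *Cox8b*, *Cox8c* and *Ndufa4l2*, a hypoxia-inducible relative of *Ndufa4*, had 0 counts in every library. *Cox6a2*, the heart and muscle form of *Cox6a1*, had 1 count in harmine replicate 1 and 0 elsewhere, the testis form *Cox6b2* had 0 to 2 counts and the muscle form *Cox7a1* had 1 to 3. The depth allows no comparison for these 7 genes. Their counterparts were well counted, with 159 and 170 CPM of *Cox6a1* with *Dyrk1a* shRNA, 190 and 158 CPM with harmine and 358 and 147 CPM in control. *Cox4i2*, the hypoxia-inducible form of *Cox4i1*, was the 1 tissue-specific form to pass the filter, at 4.6 and 6.19 CPM with *Dyrk1a* shRNA, 3.58 and 3.7 CPM with harmine, and 6.9 and 5.91 CPM in control. Neither its level (harmine against control, -0.82, standard error 0.49) nor any other member passed the test. Among the 3 genes that encode the same c-ring subunit of ATP synthase, *Atp5g1* had 42.1 and 40.7, 40.8 and 48.1, and 90.4 and 41.4 CPM, *Atp5g2* had 129 and 130, 170 and 129, and 249 and 128 CPM, and *Atp5g3* had 239 and 224, 292 and 251, and 405 and 208 CPM. All 3 were highest in control replicate 1.

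*Ndufs5*, an accessory subunit of complex I on chromosome 4, has a near-identical copy, and reads of the stretch they share may have been assigned to either gene, which was not tested. It had 17.1 expected counts in control replicate 1 and 0 in the other 5 libraries and so was not tested. *BC002163*, a processed pseudogene on chromosome 16 (GRCm38, chr16:42955631-42955949, plus strand), held 109 and 159 counts with *Dyrk1a* shRNA, 168 and 174 with harmine, and 146.86 and 51 in control. Over the 319 aligned bases the sequences differ at 2 positions, T81C and A105G (the base of *Ndufs5* first, positions counted from 1 at the first aligned base). Bases 71 to 115 of this alignment, read from GENCODE M21 transcripts in the 5′ to 3′ direction, are shown because they hold both differing bases, in capitals.
Ndufs5: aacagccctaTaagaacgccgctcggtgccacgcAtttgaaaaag
BC002163: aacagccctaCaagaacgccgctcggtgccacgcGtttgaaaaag
With the counts of both added, a choice made after seeing the data, the level was 41.8 and 46.9 CPM with *Dyrk1a* shRNA, 50.1 and 46 CPM with harmine, and 102.9 and 43.1 CPM in control. The sum thus had the pattern of the short members, and it did not pass in any comparison. Its log2 fold change was -0.75 for *Dyrk1a* shRNA against control (standard error 0.31, edgeR adjusted p = 0.616), -0.64 for harmine against control (standard error 0.30, adjusted p = 0.928) and -0.11 for *Dyrk1a* shRNA against harmine (standard error 0.29, adjusted p = 0.983).

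*Dyrk1a* shRNA against control asks how these genes respond to an shRNA against the kinase, whose own RNA lay within the range of the controls. No member passed at an adjusted p under 0.05 (quasi-likelihood F test of edgeR, p-values adjusted by Benjamini-Hochberg over every gene tested), and 0.0189% of all genes did. DESeq2 also called 0 members. At an unadjusted p under 0.05, 1 member was higher and 9 were lower, set beside 3.1% and 4.59% of all genes. In direction, 68 of 78 members lay below 0 and 10 above, where 51.6% of all genes lay below, and the median log2 fold change was -0.43 against -0.01 over all genes. This median was 0.20 without control replicate 1, and those of the 5 complexes were 0.12 to 0.31. The groups did not overlap for 4 members that were higher and 6 that were lower (18.5% and 16.9% of all genes). For the 52 members with control replicate 1 highest and control replicate 2 lowest, no treatment can be set apart from both controls. These low counts, here and for harmine, thus largely restate the split between the controls. The median was -0.44 in complex I, -0.19 in complex II, -0.39 in complex III, -0.54 in complex IV and -0.38 in complex V. In complex I it was -0.19 in the core and -0.46 in the other subunits. By coding length it was -0.50 under 600 nt, where all 57 members lay below 0, and -0.02 at 600 nt or more.

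Of the 4 members with the smallest unadjusted p in this comparison, each had a *Dyrk1a* shRNA level near or under control replicate 2 and far under control replicate 1. *Ndufb3*, an accessory subunit of the complex I membrane arm (chr1:58586384-58595964, plus strand), had 36 and 29.8 CPM with *Dyrk1a* shRNA, 49.8 and 53.6 CPM with harmine, and 94.2 and 36.3 CPM in control. Its log2 fold change against control was -1.03 (standard error 0.34, 95% interval -1.76 to -0.30, edgeR adjusted p = 0.612). *Cox7b*, a small cytochrome c oxidase subunit, had 93.1 and 92.6, 124 and 137, and 239 and 98.8 CPM in these groups. Its change was -0.88 (standard error 0.31, adjusted p = 0.612), and both *Dyrk1a* shRNA libraries lay a little under control replicate 2. *Atp5l*, subunit g of the ATP synthase membrane part, had 94.6 and 121 CPM with *Dyrk1a* shRNA, 158 and 168 CPM with harmine, and 277 and 116 CPM in control, so that the groups overlapped (-0.87, standard error 0.31, edgeR adjusted p = 0.612). *Ndufa5*, an accessory subunit of the matrix arm, had 6.9 and 7.07, 7.75 and 9.77, and 22.6 and 7.6 CPM (-1.17, standard error 0.43, adjusted p = 0.612). Without control replicate 1 the log2 fold changes were -0.16 for *Ndufb3*, -0.10 for *Cox7b*, -0.10 for *Atp5l* and -0.13 for *Ndufa5*. Without control replicate 2 they were -1.52, -1.36, -1.35 and -1.68, and each then passed. The 1 member higher at an unadjusted p under 0.05 was *Atp5sl*, at 47.1 and 49.5 CPM with *Dyrk1a* shRNA and 30.8 and 35.5 CPM in control, with 39.6 and 43 CPM with harmine between them (0.56, standard error 0.22, edgeR adjusted p = 0.612). It was named after its values were seen.

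Harmine against control asks the same of the inhibitor and shares the 2 control libraries with the comparison above, so the values of the 2 comparisons are not independent. No member passed after adjustment in edgeR or in DESeq2 (0.00943% of all genes did in edgeR). At an unadjusted p under 0.05, 0 members were higher and 1 was lower (2.22% and 3.07% of all genes). The median log2 fold change was -0.27 against -0.02 over all genes, with 62 members below 0 and 16 above (52.5% of all genes below). This median was 0.37 without control replicate 1, and those of the 5 complexes were 0.25 to 0.41. The groups did not overlap for 4 members that were higher and 2 that were lower (16.4% and 15.9% of all genes). By complex the median was -0.26, -0.04, -0.11, -0.40 and -0.23 from I to V. It was -0.32 under 600 nt of coding sequence, with 55 of 57 below 0, and 0.05 at 600 nt or more.

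The 1 lower member was *Ndufb2*, an accessory subunit of the complex I membrane arm (chr6:39592574-39603382, plus strand). It had 9.54 and 12.7 CPM with harmine, and 33.9 and 13.5 CPM in control, with 11.9 and 14.4 CPM with *Dyrk1a* shRNA. Both harmine libraries lay under both controls, by a small margin for control replicate 2, and the log2 fold change was -1.13 (standard error 0.37, 95% interval -1.92 to -0.35, edgeR adjusted p = 0.866). It was -0.28 without control replicate 1, -1.60 without control replicate 2, where it passed, and -0.51 after every library was thinned to 1096345 counts. Its exons overlap those of *Braf* on the other strand by 146 nt, and reads there may have been counted to either gene. The next smallest unadjusted p were those of *Atp5g1* (-0.60, standard error 0.28), *Ndufa5* (-0.84, standard error 0.41) and *Atp5k*, subunit e of ATP synthase (-0.73, standard error 0.41), each with an edgeR adjusted p of 0.928. Without control replicate 1 they were at 0.10, 0.20 and 0.44, and without control replicate 2 at -1.02, -1.36 and -1.29, where *Atp5g1* and *Atp5k* passed. *Atp5k* had 20.9 and 22.7 CPM with harmine and 53.4 and 16 CPM in control, so that its groups overlapped.

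**Figure D4:**
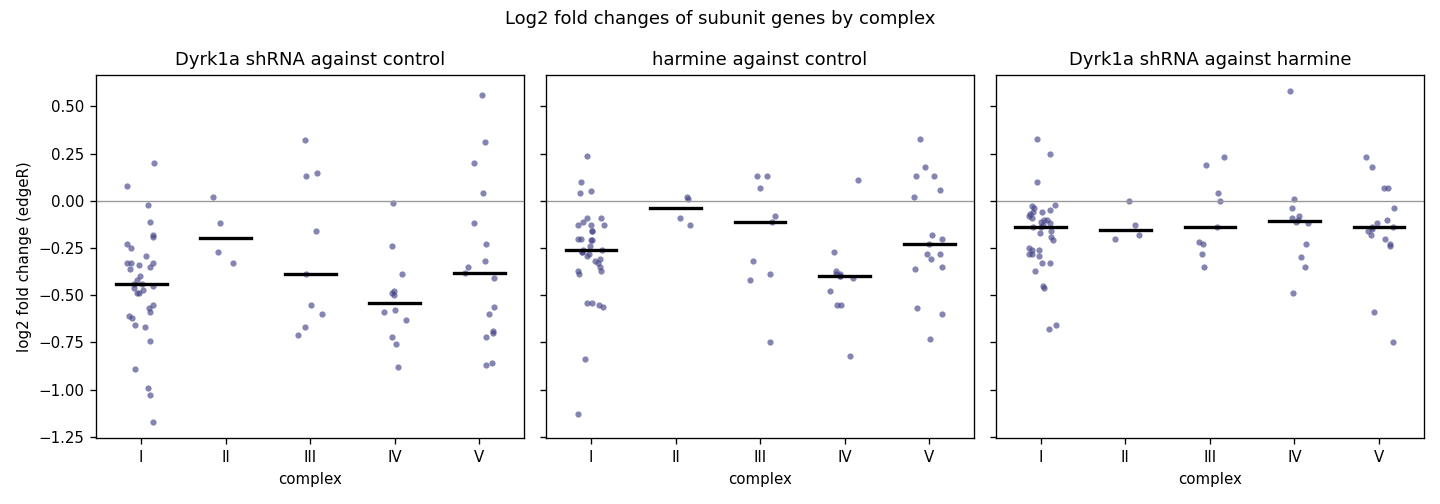
Log2 fold changes of the tested subunit genes (y axis, edgeR) by complex (x axis) in the 3 comparisons; points are genes and black lines are medians. With all 6 libraries the medians of the 5 complexes lie below 0 in each comparison, at -0.10 to -0.16 in Dyrk1a shRNA against harmine, and those against control lie above 0 without control replicate 1.

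Which control library is used decided the sign of both comparisons. Without control replicate 1, the median member was at 0.20 for *Dyrk1a* shRNA, with 66 of 78 above 0, and at 0.37 for harmine, with 75 of 78 above 0, while 48.8% and 48.9% of all genes lay below 0. No member then passed after adjustment (0.0272% and 0.0453% of all genes did), and at an unadjusted p under 0.05 there were 6 members higher and 0 lower for *Dyrk1a* shRNA and 22 higher and 0 lower for harmine. Without control replicate 2, the medians were -0.85 and -0.70, and 51 and 35 members of 79 passed as lower, 3.56% and 2.32% of all genes doing so. In these fits the lone control is assumed to vary like the other groups. Thus neither the direction nor the calls against control held for both control libraries. With trends by transcript length and GC content removed from each library, the medians were -0.14 for *Dyrk1a* shRNA and -0.05 for harmine, and no member passed. The middle member had a 95% interval reaching 0.61 to either side for *Dyrk1a* shRNA and 0.60 for harmine on the log2 scale, before any adjustment, and over the members this reach ran between 0.38 and 1.40 for *Dyrk1a* shRNA and between 0.38 and 1.27 for harmine.

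**Figure D5:**
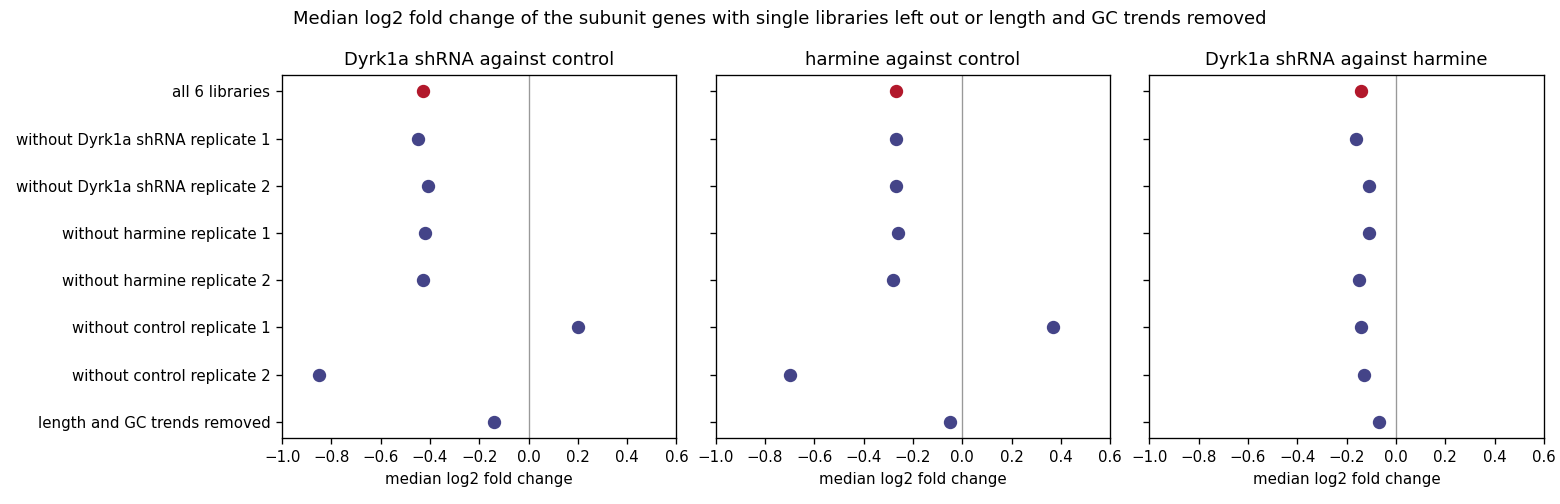
Median log2 fold change over the tested subunit genes (x axis) in the 3 comparisons, with all 6 libraries (red), with each library left out in turn and with length and GC trends removed (blue). Leaving out control replicate 1 moves the medians against control above 0, to 0.20 and 0.37, and leaving out control replicate 2 moves them to -0.85 and -0.70, while Dyrk1a shRNA against harmine stays between -0.16 and -0.07.

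*Dyrk1a* shRNA against harmine compares the treatments directly and does not use the control libraries, other than for the spread. The members differed by small amounts and mostly in 1 direction. The median log2 fold change was -0.14 against -0.00 over all genes, with 65 members below 0 and 13 above, where 50.1% of all genes lay below. The groups did not overlap for 34 members that were lower with *Dyrk1a* shRNA and 6 that were higher, set beside 20.8% and 20.2% of all genes. No member passed after adjustment in edgeR or DESeq2 (0.00943% of all genes did in edgeR), and before adjustment 0 members were higher and 0 were lower at p under 0.05 (2.91% and 2.82% of all genes). The medians of the 5 complexes were -0.14, -0.16, -0.14, -0.10 and -0.14 from I to V, and -0.10, -0.13, 0.00, -0.03 and -0.03 with length and GC trends removed. Of the 34 lower members, 15 were of complex I, 2 of complex II, 5 of complex III, 6 of complex IV and 6 of complex V. By coding length, 30 of them had under 600 nt (median -0.16, 51 of 57 below 0) and 4 had 600 nt or more (median -0.06). Spearman's rho of the fold change with coding length was 0.43 across the members and 0.21 across all genes. The share of short coding sequences outside the group was also lower with *Dyrk1a* shRNA (19.5% and 19.7%) than with harmine (21.7% and 21%), and its part in the result was not tested. The median over all members was -0.07 with length and GC trends removed.

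Among the smallest unadjusted p between the treatments were those of *Ndufb3*, *Atp5l* and *Ndufb5*. *Ndufb3*, with the values given above, had a log2 fold change of -0.66 (standard error 0.32, edgeR adjusted p = 0.859), and *Atp5l* one of -0.59 (standard error 0.31, edgeR adjusted p = 0.866). In both, each *Dyrk1a* shRNA library was under each harmine library. *Ndufb5*, of the membrane arm, had 101 and 107 CPM with *Dyrk1a* shRNA and 145 and 124 CPM with harmine, with 159 and 101 CPM in control (-0.37, standard error 0.21, edgeR adjusted p = 0.866). Its exons overlap those of *Mrpl47* on the other strand by 158 nt.

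The bases around the start sites of the members were searched for words bound by 3 known regulators of these genes. This describes the promoters, and a link of the words to the difference between the control libraries was not tested. The NRF1 word is a shorter core of the form first searched, chosen after the values were seen. RefSeq promoters (GRCm38.p6, 250 bases before to 50 after the start) were matched for 70 of the 86 members and set beside those of 27025 genes. On either strand, the NRF1 word CGCATGCG was found in 9 members (12.9%, against 2.07% of all promoters), the ETS word CCGGAAG of GABPA in 16 (22.9% against 9.93%) and the YY1 word AAGATGGCG in 8 (11.4% against 1.64%). At least 1 word was present in 27 members (38.6% against 12.81%). The 27025 genes were not limited to those tested in these cells, so the shares are not of like genes. Members that followed the difference between the controls were not compared with those that did not. A match is a description of the letters and not a binding site. Upstream bases of 4 members, all on the minus strand of their chromosome, are written 5′ to 3′ along the gene with the words in capitals, where CTTCCGG is the ETS word on the opposite strand.
Cox6a1: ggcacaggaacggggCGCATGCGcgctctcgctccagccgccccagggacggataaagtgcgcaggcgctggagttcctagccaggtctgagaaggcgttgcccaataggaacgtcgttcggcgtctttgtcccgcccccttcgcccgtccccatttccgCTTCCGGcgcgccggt
Atp5k: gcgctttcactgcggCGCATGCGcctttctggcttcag
Ndufs3: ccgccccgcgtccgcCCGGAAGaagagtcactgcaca
Uqcrh: gaggagtatgccgcaCTTCCGGcca
*Cox6a1* (chr5:115348959-115349134) is shown because it holds both an NRF1 and an ETS word before its start. *Atp5k* (chr5:108434426-108434463) is a named short member with the NRF1 word. *Uqcrh* (chr4:116075071-116075095) is the complex III member with most counts, and *Ndufs3* (chr2:90904727-90904763) is a core subunit of complex I. The promoters of *Atp5k* and *Ndufs3* each also hold an ETS word outside the bases printed. *Cox6a1*, *Atp5k*, *Uqcrh* and *Ndufs3*, picked after their values were seen, were all highest in control replicate 1, as were 66 of the 78 tested members. *Ndufs3* had 82 and 75.8 CPM with *Dyrk1a* shRNA, 89.7 and 75 CPM with harmine, and 109 and 69.2 CPM in control. *Uqcrc1*, with the NRF1 word, and *Ndufa9* and *Atp5sl*, with the YY1 word, were not highest in control replicate 1.

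RNA levels of the factors themselves are given here, and their part in the difference between the controls was not tested. *Nrf1* had 57.5 and 59.5 CPM with *Dyrk1a* shRNA, 54 and 48.8 CPM with harmine, and 36.4 and 52.3 CPM in control, so that it was lowest in control replicate 1. *Gabpa*, also lowest in control replicate 1, had 51.7 and 49.8, 53.1 and 59.7, and 47.7 and 58.2 CPM. *Yy1* had 138 and 126, 136 and 130, and 132 and 125 CPM. The coactivators *Ppargc1a* and *Ppargc1b* were near 0, at 0 to 0.844 and 0.628 to 4.22 CPM, and did not pass the filter. The 15 of 17 regulators tested had medians of -0.05, 0.06 and -0.01 for *Dyrk1a* shRNA against control, harmine against control and *Dyrk1a* shRNA against harmine. In each, 0 passed in edgeR and DESeq2. Without control replicate 1 the medians were -0.11 for *Dyrk1a* shRNA and -0.01 for harmine against control, and without control replicate 2 they were 0.14 and 0.22. At an unadjusted p under 0.05, 1 was lower with *Dyrk1a* shRNA against control (4.59% of all genes). This was *Ssbp1*, a mitochondrial DNA-binding protein, at -0.62.

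Other genes of the same organelle are set beside the subunits, and 0 of them passed after adjustment in edgeR or DESeq2. Of 42 assembly factors 40 were tested, with medians of -0.25, -0.22 and -0.07 in the 3 comparisons in the same order. At an unadjusted p under 0.05, 3, 3 and 2 were lower (4.59%, 3.07% and 2.82% of all genes). In each comparison 0 were higher (3.1%, 2.22% and 2.91% of all genes). The copper chaperone *Cox17* had 82 and 71.9 CPM with *Dyrk1a* shRNA, 89.1 and 111 CPM with harmine, and 217 and 77.7 CPM in control, which was the pattern of the short subunits. Of 7 further partners 6 were tested, and all lay below 0 in each comparison (medians -0.47, -0.13 and -0.36). Among them cytochrome c, *Cycs*, had 101 and 103 CPM with *Dyrk1a* shRNA, 133 and 124 CPM with harmine, and 183 and 104 CPM in control, and *2010107E04Rik*, a small ATP synthase protein, had 35.6 and 41.9, 68 and 61, and 107 and 43 CPM. This gene was at -0.73 between the treatments (standard error 0.31, edgeR adjusted p = 0.831). The 17 genes of mitochondrial import had medians of -0.22, -0.12 and -0.10. Without control replicate 1, the medians against control were above 0 in all of these lists, at 0.12 for *Dyrk1a* shRNA and 0.19 for harmine in the assembly factors, 0.29 and 0.60 in the partners, and 0.11 and 0.21 in import.

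The citrate cycle feeds the chain with electrons. Its 17 genes had a median of 0.06 for *Dyrk1a* shRNA against control, with 10 above 0 (51.6% of all genes lay below), 0.19 for harmine against control, with 15 above 0 (52.5% of all genes lay below), and -0.13 for *Dyrk1a* shRNA against harmine. Without control replicate 1 the medians against control were 0.16 for *Dyrk1a* shRNA and 0.23 for harmine, and without control replicate 2 they were -0.03 and 0.06. At an unadjusted p under 0.05, 1 was higher with harmine against control (2.22% of all genes). This was *Suclg2*, a subunit of succinyl-CoA ligase, at 37.6 and 40.9 CPM with harmine and 27 and 27 CPM in control (0.54, standard error 0.23). It did not pass after adjustment.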

How the data were processed

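PolyA RNA was reverse transcribed from poly-dT, tagmented with Nextera and read on a MiSeq. Per the submitters' processing notes, TopHat2 2.0.13, RSEM and DESeq were used. The authors mapped reads to the mm10 genome and let RSEM estimate counts from known transcripts. They deposited these expected counts per gene without normalization in 1 table, whose 6 columns were matched to the labels. RSEM's version, the annotation's version and the use of strand are not given in the sources used here.

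For testing, the deposited expected counts, rounded to integers, were fitted in edgeR 4.0.16 (R 4.3.3) with TMM scaling, after filterByExpr at a minimum of 10 counts. The two-sided quasi-likelihood F test was robust, and p-values were adjusted by Benjamini-Hochberg over the 10607 genes that passed, with a threshold of 0.05. A single fit with 3 group means held all 6 libraries, and intervals are at 95%. CPM are TMM scaled, and log2 levels use CPM + 0.5. DESeq2 1.42.0 was the alternative test. Lists are described by counts and medians, with no test. The script was tested on simulated data.

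The rule for named members takes, in each comparison, those that pass and the 4 of smallest unadjusted p, the 3 members of most CPM per complex, isoform pairs, and members under the filter. Of other lists it takes the 2 genes of smallest unadjusted p, of which a part is printed. A few genes chosen in this way are not reported here. Genes outside it (*Ndufs1*, *Ndufa1*, *Atp5j2* and the promoter examples among them) were chosen after their values were seen, as were the coding length limit of 600 nt and the NRF1 word, a shorter core of the form first searched. The members and lists were chosen with earlier results of these data known. Positions and coding lengths come from GENCODE M21 (GRCm38, the assembly of mm10), where 98.4% of symbols and all 86 members matched. The alternatives were other scalings, no filter or a stricter one (50 counts), a replicate block, fitting only the compared pair, thinning to 1096345 counts, removal of length and GC trends (natural splines, 4 degrees of freedom), another assignment of subunits, and leaving out each library. Replicates of no group agreed within counting noise, so none were merged.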

Additional observations from a re-analysis of the deposited data

How the results depend on the processing

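Leaving out single libraries moved the number of subunit genes that passed between 0 and 51 for *Dyrk1a* shRNA against control and between 0 and 35 for harmine against control, all lower, and the median log2 fold change between -0.85 and 0.20 and between -0.70 and 0.37. The highest counts and lowest medians came without control replicate 2, and the highest medians without control replicate 1. In the harmine comparison, *Atp5g1* ranged from -1.02 to 0.10, *Ndufa5* from -1.36 to 0.20 and *Atp5k* from -1.29 to 0.44, turning above 0 without control replicate 1. Without the filter on low counts, 4 members passed as lower for *Dyrk1a* shRNA and 1 for harmine (0.18% and 0.128% of all genes in either direction), and the cause was not tested. With length and GC trends removed, the median of *Dyrk1a* shRNA against harmine was -0.07, also with the replicate block added. With the replicate block alone, 0 members passed in each comparison and the medians were -0.36, -0.21 and -0.13 for *Dyrk1a* shRNA against control, harmine against control and *Dyrk1a* shRNA against harmine. Deviations of same-numbered replicates correlated at 0.24 between harmine and *Dyrk1a* shRNA, 0.12 between harmine and control, and 0.0196 between *Dyrk1a* shRNA and control. Whether same-numbered samples shared a culture or a batch was not tested. DESeq2 gave medians of -0.41, -0.27 and -0.14. Of 30 medians and named genes, 15 turned in sign without control replicate 1 and 0 on leaving out any other library. All 15 were of comparisons with control. The 30 include the values of *Dyrk1a* shRNA against harmine, which uses the control libraries only for the spread. With length and GC trends removed, with or without the block, 2 of 60 values turned, both of complex V with harmine against control (0.03, against -0.23), and the median of complex III was at -0.00 for *Dyrk1a* shRNA against control. Under the other settings 0 of 253 values turned. With 1096345 to 3747648 counts per library and 2 libraries per group, the 95% intervals of the members had a median reach of 0.61, 0.60 and 0.58 in the 3 comparisons.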
